A study of Homo sapiens with 4 samples.

Results

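The DNA loops described here lie on both arms of human chromosome 16, outside its pericentromere. They were taken from POLR2A HiChIP-seq of HepG2, a human hepatocellular carcinoma cell line. A loop was included when it lay on chromosome 16 of GRCh38 and neither anchor touched the stretch from 33000000 to 48000000, a rule that uses position only. This gave 5230 distinct loops of 77862 in the whole series, with 4471 of the 66417 loops listed for mock-treated cells and 1409 of the 18778 listed for PDS-treated cells. The short arm held 2188 mock loops and 700 PDS loops, and the long arm held 2283 and 709. Cells received either mock treatment or 20 µM pyridostatin (PDS), a small molecule that binds G-quadruplex (G4) DNA, for 24 h, with 2 replicates per condition and no genetic change. The lists came with 1 combined set of loops per condition, so the spread between replicates is unknown and the conditions are compared without a test. All intervals are at the 95% level by Wilson's method. For a PDS/mock ratio they were computed on the part of the combined count that came from PDS-treated cells. They cover counting error only.

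POLR2A is the largest subunit of RNA polymerase II (RNAPII). In HiChIP-seq, chromatin is cut, ends that lie close together are ligated, and the ligated chromatin is pulled down with an antibody to the protein. Each paired-end tag (PET) reports 1 such contact, and a loop is a pair of anchors joined by several PETs. RNAPII loops commonly join promoters to enhancers, to other promoters or to stretches inside the same transcribed gene. A G4 is a 4-stranded fold of DNA that can form where runs of G lie close together, and such sequences are frequent at promoters. Chromosome 16 is known for gene-dense, GC-rich arm ends, for long genes on both arms, and for blocks of duplicated sequence on the short arm.

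The sequences below were read from GRCh38. The first set shows predicted G4 motifs from promoter anchors of genes with many loops or with extreme PDS/mock ratios, since PDS binds folds that such sequences can form. A motif was defined as 4 runs of 3 or more G, separated by 1 to 7 bases, on either strand. Capitals mark the runs of G, and each sequence is written 5′ to 3′ on the strand that carries it. The FTO motif lies on the minus strand at chr16:53703766-53703792. The RMI2 motif lies on the minus strand at chr16:11312862-11312883. The TMEM114 motif lies on the minus strand at chr16:8590216-8590239, outside the anchor that joins most of the gene's loops. The SOCS1 motif lies on the minus strand at chr16:11256268-11256293. The PMM2 motif lies on the minus strand at chr16:8797548-8797569. The GRIN2A motif lies on the minus strand at chr16:10181838-10181864.
FTO: GGGaggatGGGGGaggatgaGGGtGGG
RMI2: GGGtGGGGagtgaGGGGaGGGG
TMEM114: GGGctGGGcgtggaGGGccgaGGG
SOCS1: GGGGGcGGGGccggcaGGGGGcGGGG
PMM2: GGGGtcGGGGtcaGGGctGGGG
GRIN2A: GGGagatcaGGGctccttGGGccGGGG
At least 1 motif was found in 53.7% of the 4622 anchors on the chromosome 16 arms and in 47.0% of the 77120 other anchors of the series. The median anchor width was 5674 bp on the arms and 5830 bp elsewhere. A match describes the letters of the reference and does not show that a fold forms.

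The next set shows what an anchor edge is and why some distant anchors are hard to tell apart. MboI cuts at GATC, shown in capitals, and all 4622 anchors of the arms began with this site and were followed by it. The edge shown is the left edge of the left anchor of the mock loop with most PETs, chr16:14310058-14325394.
Left edge: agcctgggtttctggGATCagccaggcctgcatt
The last sequences are 60-base stretches that occur in both anchors of a loop. The first lies at chr16:21773509-21773568 and again at chr16:22589652-22589711 on the same strand. The second lies at chr16:20428100-20428159 and again, on the opposite strand, at chr16:20595473-20595532.
Stretch shared by anchors 817 kb apart: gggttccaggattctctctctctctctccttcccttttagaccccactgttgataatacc
Stretch shared by anchors 168 kb apart: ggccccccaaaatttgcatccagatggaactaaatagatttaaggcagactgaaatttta
The values of the loops that join these anchors are given with the strongest loops.

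The chromosome 16 arms were rich in RNAPII loops. Mock-treated cells had 59.4 loops per Mb there, against a median of 15.9 across the other 22 chromosomes, and chromosome 20 was denser, with 89.0. The length of the arms leaves out the excluded stretch, while other chromosomes were divided by their full length. With that stretch and its loops, chromosome 16 had 50.9 mock loops per Mb, below the 53.5 of chromosome 17. After PDS treatment the arms had 18.7 loops per Mb. The PDS/mock ratio of loop numbers was 0.315 (95% interval 0.297 to 0.335) on the arms and 0.280 (0.276 to 0.285) in the rest of the series, so the intervals did not overlap. The arms had rank 3 of 23 by this ratio, and the median of the other 22 chromosomes was 0.246. Higher were chromosome 14, with 0.3685 (0.348 to 0.390), and chromosome 20, with 0.359 (0.341 to 0.377). Chromosome 2 had 0.310 (0.299 to 0.322) and chromosome 17 had 0.274 (0.257 to 0.292). By both loop density and ratio, the arms and chromosomes 2, 6, 14, 17 and 20 took the first 6 ranks. The arms themselves had close values, 0.320 (0.294 to 0.348) on the short arm and 0.311 (0.285 to 0.338) on the long arm. The summed PETs were 17631 for the mock list and 4907 for the PDS list, which gives a ratio of 0.278 (0.270 to 0.287). PETs outside the listed loops are not counted in them. Neither the libraries' sequencing depth nor the DNA copy number of the chromosomes was used here. Loop densities and ratios are therefore not adjusted for either, and their part in the values was not tested. PETs come grouped in loops, so the intervals of PET ratios, here and below, are too narrow.

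Most loops rested on few PETs. The lowest count in either list was 3, and 56.2% of mock loops and 70.0% of PDS loops on the arms had exactly that number. At 5 or more PETs there were 996 mock loops and 160 PDS loops, and at 10 or more there were 57 and 2. The ratio of loop numbers was 0.161 (0.136 to 0.190) among loops with at least 5 PETs. A loop missing from a list may have had up to 2 PETs there.

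As a check of the labelled cell line, promoter loops were counted at marker genes over the whole series. Of 11 hepatocyte markers, 10 had a mock loop, where 60.03% of all protein-coding genes of the series did, with 13 at ALB, 13 at HNF4A and 5 at AFP, while APOA1 had 0. Loops were also listed at markers of other cells, with 8 at PECAM1, 7 at CDH5, 4 at COL1A1 and 0 at PTPRC and SPI1.

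Loops were spread unevenly along both arms. The median 1 Mb bin held 55.5 mock loops, the densest held 168, and the 10 densest of 76 bins together held 28.1% of all mock loops. The densest bin ran from 11 to 12 Mb and dropped to 45 loops after PDS. It holds RMI2, whose product works with the BLM helicase, and LITAF, an endosomal membrane protein gene. The bins from 12 to 13 Mb, with 146 mock and 52 PDS loops, and from 10 to 11 Mb, with 140 and 46, lie on either side of it. The first of these is led by SNX29, a sorting nexin gene, and the second by EMP2, an epithelial membrane protein gene. The fourth densest bin, from 8 to 9 Mb, had 129 mock and 39 PDS loops and contains TMEM114, ABAT, PMM2 and USP7. On the long arm the densest bin ran from 69 to 70 Mb, with 123 mock and 29 PDS loops, and was led by WWP2, a ubiquitin ligase gene.

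**Figure D1:**
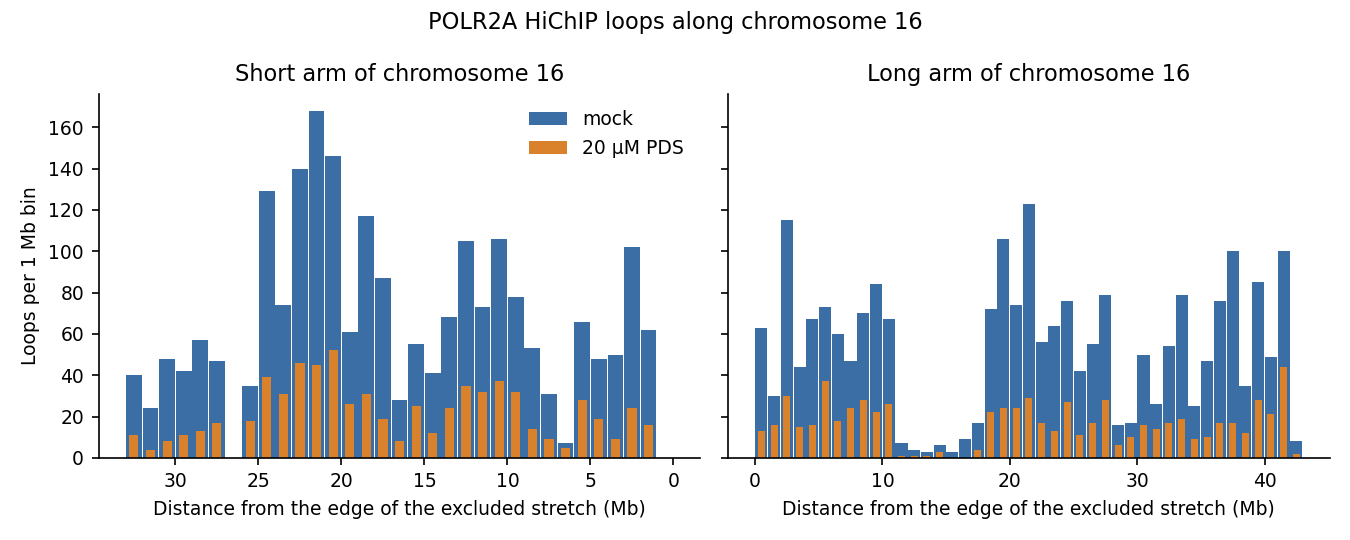
Loops per 1 Mb bin (vertical axis) against the distance of the bin from the edge of the excluded stretch in Mb (horizontal axis), for the short and the long arm. Blue bars are mock-treated cells and orange bars PDS-treated cells: the tallest bar is 168 mock loops on the short arm, and a run of nearly empty bins lies on the long arm.

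The stretch from 10 to 15 Mb held 632 mock loops, or 126 per Mb, and 200 PDS loops. It had rank 5 among the 596 full 5 Mb windows of the series by mock loops. It is not rich in genes, with 37 protein-coding genes, or 7.40 per Mb, of which 32 had a mock loop at a promoter. At the other extreme, the window from 60 to 65 Mb had 25 mock loops and 5 PDS loops. It contains 1 protein-coding gene, CDH8, a cadherin gene, and its GC content was 36.6%. Bins with no mock loop were those from 6 to 7 Mb, inside RBFOX1, a splicing factor gene, and from 32 to 33 Mb beside the excluded stretch. Across the 15 windows with at least 50 mock loops, mock loop density had a Pearson correlation of -0.17 with gene density, or 0.03 without the window from 0 to 5 Mb, and 0.93 with PDS loop density. These windows share libraries and differ in base composition, so the correlations are descriptions.

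Most windows had a PDS/mock ratio that the counts do not separate from that of the arms as a whole. Among the 15 windows with at least 50 mock loops, a minimum set after the counts were seen, ratios ran from 0.223 to 0.394 with a median of 0.316. The intervals of 14 of them included the ratio of the arms as a whole. The highest value, 0.394 (0.301 to 0.515), came from 75 to 80 Mb, with 188 mock and 74 PDS loops, a window that contains WWOX. The next were 0.368 (0.295 to 0.461) from 5 to 10 Mb and 0.367 (0.292 to 0.461) from 55 to 60 Mb. These intervals overlap widely, so their order is not resolved by the counts.

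**Figure D2:**
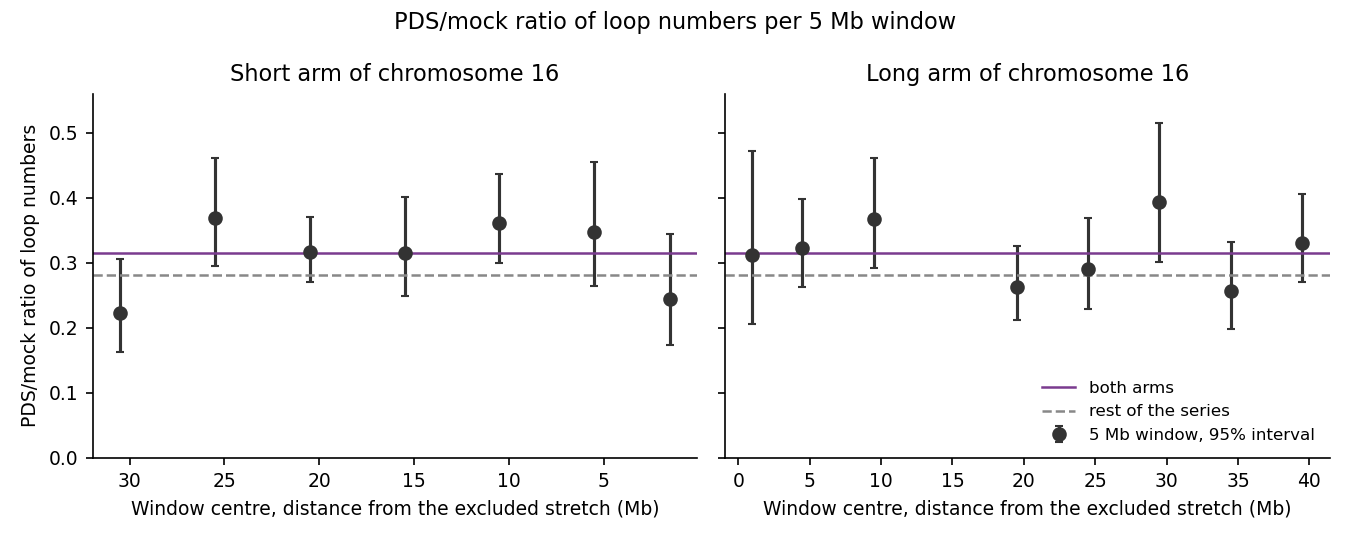
PDS/mock ratio of loop numbers (vertical axis) per 5 Mb window, against the distance of the window centre from the excluded stretch in Mb (horizontal axis). Points are ratios with 95% intervals, the solid line is the ratio of both arms (0.315) and the dashed line that of the rest of the series (0.280): the point farthest out on the short arm, at 0.223, is the only one whose interval misses the solid line.

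The exception was the tip of the short arm, from 0 to 5 Mb, which was picked as the lowest of 15 ratios. The values below come from the same loops and are not separate evidence. The tip had 211 mock loops and 47 PDS loops, a ratio of 0.223 (0.163 to 0.305). Without loops that have an anchor of over 10% multi-copy sequence, the lowest was 65 to 70 Mb (0.203) among windows that still had at least 50 mock loops. Windows left with fewer were not ranked, so this value does not show that 65 to 70 Mb fell below the tip. By PETs, 792 against 145, the ratio was 0.183 (0.153 to 0.219). Of the 47 PDS loops at the tip, 0 had 5 or more PETs, where mock-treated cells had 38 such loops. The ratio of 0 had an upper limit of 0.101. In the rest of the arms that ratio was 0.167 (0.141 to 0.197). Loops listed for both conditions made up 8.06% of the mock loops at the tip (5.09 to 12.5%) and 14.9% (13.8 to 15.96%) in the rest of the arms.

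The tip is the most gene-dense window of the arms, with 192 protein-coding genes or 38.4 per Mb, and its GC content was 54.1%. It had 1.10 mock loops per gene, against 17.1 in the window from 10 to 15 Mb. Its genes had few loops each: the most were 7 mock loops, at E4F1, NAA60 and NPRL3. NPRL3 carries the erythroid enhancers of the neighbouring alpha-globin genes in its introns, and it had 2 PDS loops. A promoter lay at 1 or both anchors in 75.8% of the tip's mock loops. Within the tip, loops with a promoter had a ratio of 0.206 (0.142 to 0.299) and loops without one 0.275 (0.153 to 0.492). Each interval includes the value of its class on both arms, given with the loop classes.

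The other GC-rich arm end had a higher ratio, which the numbers of all loops did not separate from that of the tip. The window from 85 to 90 Mb had a GC content of 53.0% and 523 predicted G4 motifs per Mb, beside 634 per Mb at the tip of the short arm. Its gene density was 12.4 per Mb. It had 369 mock loops and 122 PDS loops, a ratio of 0.331 (0.270 to 0.406), whose interval overlaps that of the short arm's tip. By PETs the ratio was 0.289 (0.260 to 0.321), above the PET interval of the short arm's tip. PETs come grouped in loops, so these intervals are too narrow and the gap is not read as a difference. At 5 or more PETs, the window from 85 to 90 Mb had 95 mock and 17 PDS loops. Their ratio of 0.179 (0.107 to 0.298) lies above the tip's upper limit of 0.101. Mock loops listed in both made up 17.6% (14.1 to 21.8%) there and 8.06% (5.09 to 12.5%) at the tip, with no overlap. The tip was picked as the lowest window, so these gaps follow in part from the choice. Over the 15 windows, the ratio had a Pearson correlation of -0.67 with gene density, which was -0.52 over 14 windows without the tip, and Spearman correlations of -0.44 and -0.31. With GC content the Pearson values were -0.50 and -0.26 and the Spearman values -0.54 and -0.44. With the share of promoter loops they were -0.56 and -0.44 by Pearson and -0.37 and -0.23 by Spearman. The parts of gene density, GC content and promoter share in the ratio cannot be told apart with 15 windows.

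The arms had 650 loops with identical anchors in both lists, which made up 14.5% of mock loops (13.5 to 15.6%), where 11.0% of all mock loops of the series were listed after PDS. Chromosome 20 had a higher share, 16.7% (15.8 to 17.7%), so a share above that of the series is not particular to these arms. Of the PDS loops on the arms, 46.1% (43.5 to 48.7%) were also mock loops, against 39.1% for the whole series. Stronger mock loops were more often listed after PDS. Among mock loops with 3 PETs, 7.36% (6.40 to 8.45%) were listed in both, against 5.88% (5.64 to 6.12%) in the rest of the series. With 4 PETs the intervals overlapped, at 13.5% (11.5 to 15.8%) and 11.5% (11.0 to 12.1%). With 5 PETs the shares were 24.6% (20.9 to 28.7%) and 17.8% (16.8 to 18.8%), and with 6 PETs 34.2% (28.4 to 40.6%) and 25.7% (24.1 to 27.4%), with no overlap. With 7 to 9 PETs they overlapped again, at 43.3% (37.3 to 49.6%) and 38.2% (36.3 to 40.2%). With 10 or more PETs they were 63.2% (50.2 to 74.5%) and 62.5% (58.4 to 66.5%), which the counts do not separate. If mock loops of each PET class had been listed after PDS at the rate of the rest of the series, 530 of the arms' loops would have been shared, or 11.8%.

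**Figure D3:**
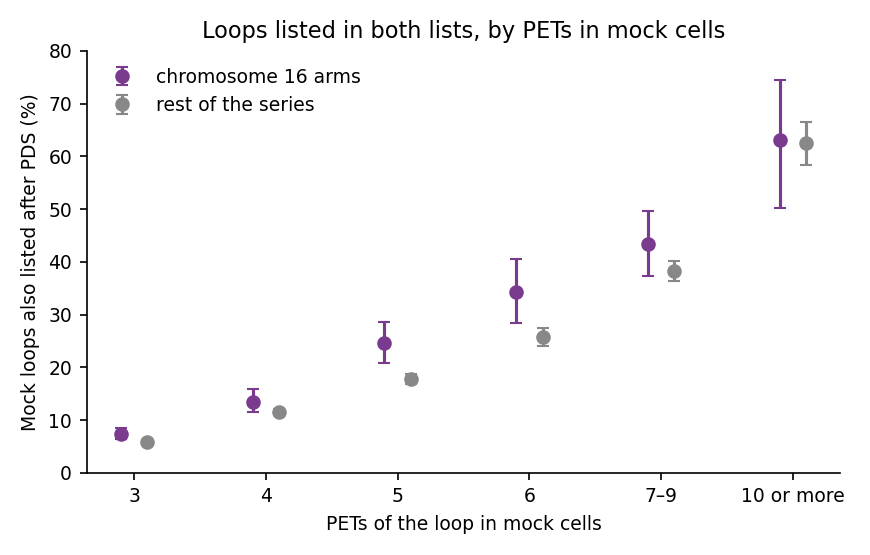
Percent of mock loops also listed after PDS treatment (vertical axis) by the number of PETs in mock-treated cells (horizontal axis), with 95% Wilson intervals. Purple points are the chromosome 16 arms and grey points the rest of the series: both rise with PETs, and at 5 PETs they stand at 24.6% and 17.8%.

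Of the 650 shared loops, 388 (59.7%) had fewer PETs after PDS, where 55.3% of all shared loops of the series did. A further 179 had the same number and 83 had more. The 185 shared loops with 3 mock PETs could not be lower and still be listed. On the log2 scale, the median change in PETs of the 650 loops was -0.42. The other 759 PDS loops were not in the mock list. They had at most 7 PETs, and 38 had 5 or more. The loop with 7 PETs joins chr16:50094908-50102294, in HEATR3, with chr16:50113759-50118718. One with 6 PETs joins a promoter anchor of the metallothionein gene MT1F to promoters of MT1G and MT1H, and others lie in CLEC16A and SNX29 and at the promoters of SGF29.

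A promoter anchor, defined as lying within 1 kb of a start site of any transcript of a protein-coding gene, was present in 49.8% of mock loops (48.3 to 51.3%) and 46.0% of PDS loops (43.4 to 48.6%). The PDS/mock ratio was 0.291 (0.267 to 0.318) for loops with a promoter and 0.339 (0.312 to 0.368) for loops without, and these intervals overlap. The shares of mock loops listed in both, 13.97% (12.6 to 15.5%) and 15.1% (13.7 to 16.6%), overlapped too. On the short arm the ratios were 0.281 (0.248 to 0.318) and 0.361 (0.321 to 0.406), with no overlap, and on the long arm 0.301 (0.267 to 0.341) and 0.319 (0.284 to 0.358). With the tip left out, the short arm values became 0.294 (0.257 to 0.335) and 0.366 (0.325 to 0.412), whose intervals overlap slightly. The same order held in the rest of the series, with 0.251 (0.245 to 0.258) and 0.305 (0.298 to 0.311). It also held at the tip, as given above. In the window from 85 to 90 Mb it was reversed, with 0.3776 (0.2892 to 0.4929) and 0.2775 (0.2018 to 0.3815), and these intervals overlap.

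At least 1 anchor held a motif in 81.8% of mock loops (80.6 to 82.9%) and 81.7% of PDS loops (79.6 to 83.6%). The ratio was 0.315 (0.295 to 0.336) for loops with a motif and 0.317 (0.275 to 0.364) for loops without. Anchor width moved with the ratio far more than the motif did. Loops whose anchors averaged under 4 kb had a ratio of 0.238 (0.183 to 0.311), those of 4 to 8 kb 0.259 (0.235 to 0.284), and wider ones 0.383 (0.353 to 0.416). Within each width class, loops with a motif had the lower ratio, with overlapping intervals. The ratios with and without a motif were 0.215 (0.151 to 0.304) and 0.279 (0.185 to 0.420) under 4 kb, 0.253 (0.227 to 0.283) and 0.274 (0.228 to 0.330) at 4 to 8 kb, and 0.376 (0.345 to 0.410) and 0.451 (0.350 to 0.580) above. Wider anchors hold more sequence and so more motifs, and the median anchor width was 7477 bp for loops with a motif and 5574 bp for loops without. The rest of the series showed the same order by width, with 0.223, 0.239 and 0.330.

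**Figure D4:**
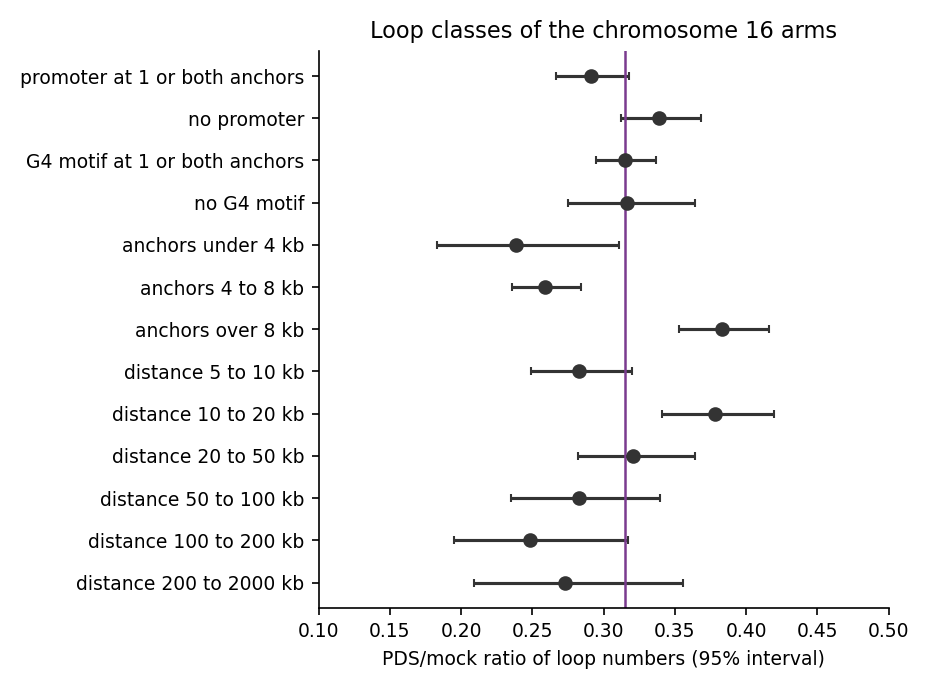
PDS/mock ratio of loop numbers (horizontal axis) for classes of loops on the chromosome 16 arms (vertical axis: promoter, G4 motif, mean anchor width, distance between anchors), with 95% intervals. The vertical line is the ratio of all loops, 0.315: loops with anchors over 8 kb (0.383) and loops of 10 to 20 kb (0.378) stand to its right.

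The distance between anchor midpoints had a median of 17917 bp for mock loops and 16543.5 bp for PDS loops. By distance, the ratio was highest for loops of 10 to 20 kb, at 0.378 (0.341 to 0.420), against 0.282 (0.249 to 0.320) at 5 to 10 kb and 0.249 (0.195 to 0.317) at 100 to 200 kb. The order was shared by the rest of the series up to that distance, where the values were 0.311, 0.255 and 0.244. At 200 kb and beyond, the arms had 253 mock and 69 PDS loops. On the long arm alone the shortest loops, 5 to 10 kb, had 0.239 (0.198 to 0.288), while the short arm had 0.326 (0.276 to 0.385).

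At the level of genes, 680 of 841 protein-coding genes on the arms (80.9%) had a mock loop at a promoter, and 413 (49.1%) had a PDS loop. The 25 genes with at least 15 mock loops were picked by their mock counts, so their lower counts after PDS are a description. The intervals of all 25 ratios include that of the arms as a whole, so the genes below are ordered by count, and their ratios are not resolved from one another. Loops were assigned to every start site of a gene, and many genes near the top have long bodies with many annotated starts. FTO had 3 mock loops at its canonical start, RMI2 7, TMEM114 2 and GSE1 4.

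FTO, which encodes an RNA demethylase, had the most loops, with 34 mock and 13 PDS loops and 137 and 47 PETs. The gene has 18 annotated start sites and had 9 promoter anchors, and 10 of its loops were in both lists. The gene's busiest anchor, chr16:53933970-53960788, joined 14 mock and 8 PDS loops and held 0 predicted G4 motifs. RMI2 had 31 mock and 11 PDS loops and the highest PET count of any gene, 156 mock and 52 PDS PETs. It shares the anchor chr16:11249395-11268430 with SOCS1, which encodes an inhibitor of JAK-STAT signalling, and with TNP2, a gene of sperm chromatin. That anchor joined 16 mock and 7 PDS loops and held 16 predicted motifs, among them the SOCS1 sequence printed above. Loops at a shared anchor cannot be divided among these genes, so the 20 mock and 8 PDS loops counted for TNP2 are largely the same loops.

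TMEM114, which encodes a claudin-related membrane protein, had 27 mock and 5 PDS loops. Nearly all met at 1 anchor, chr16:8550008-8574282, the busiest of the arms, with 26 mock and 5 PDS loops. GSE1, a gene of a chromatin-bound protein, also had 27 and 5 loops, spread over 8 promoter anchors. MRTFB, a coactivator of serum response factor, had 26 and 9, and USP7, a ubiquitin protease that acts on p53 and MDM2, had 24 and 7. ABAT, the enzyme that breaks down the transmitter GABA, had 23 and 6. EMP2 and WWP2 each had 22 mock and 9 PDS loops, and SMG1, a kinase of nonsense-mediated RNA decay, had 21 and 4. Across all anchors of the arms, 24 joined 10 or more mock loops, while no anchor joined more than 8 PDS loops.

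**Figure D5:**
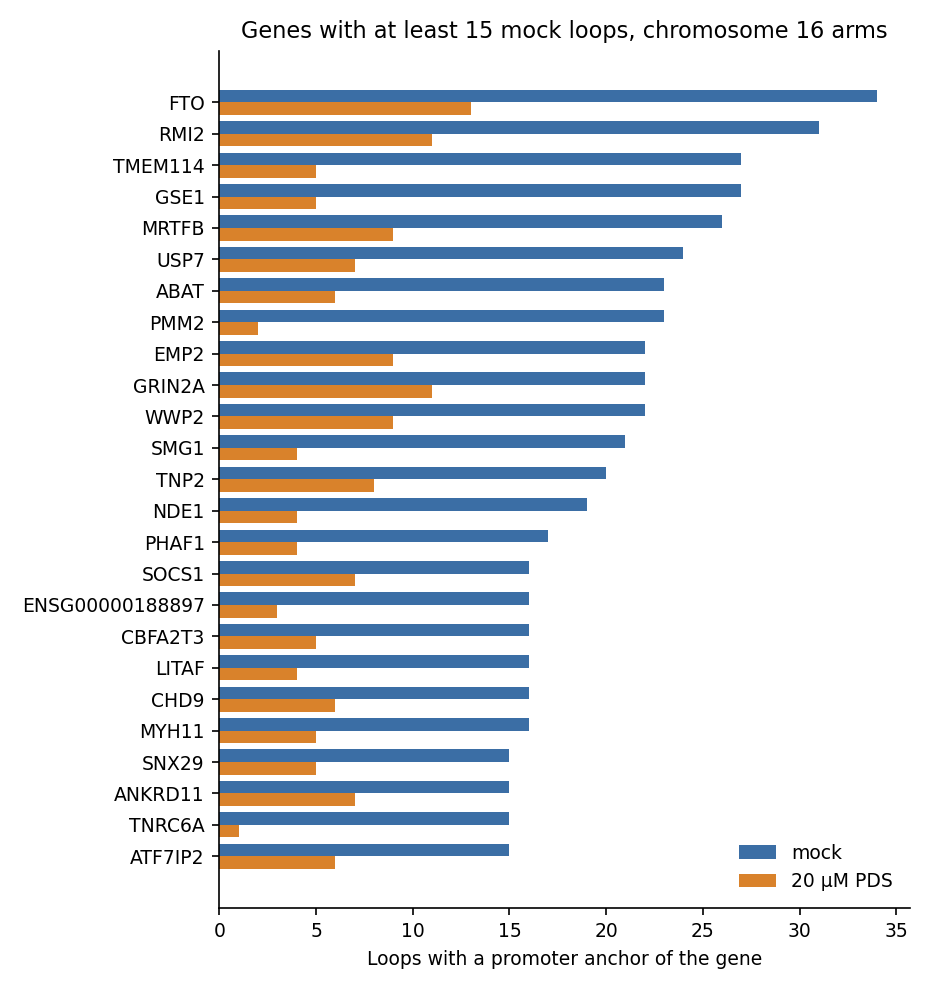
Number of loops with a promoter anchor of the gene (horizontal axis) for the 25 genes with at least 15 mock loops (vertical axis). Blue bars are mock-treated cells and orange bars PDS-treated cells: the genes were picked by mock loops, and the counts run from 34 and 13 at FTO to 15 and 1 at TNRC6A.

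The lowest ratios among these 25 genes were at TNRC6A, a scaffold of microRNA silencing, with 15 mock loops and 1 PDS loop (0.0667, 0.0112 to 0.395), and at PMM2, an enzyme of N-glycosylation, with 23 and 2 (0.0870, 0.0227 to 0.333). TNRC6A had 55 mock and 3 PDS PETs, and PMM2 had 88 and 8. The highest were at GRIN2A, a subunit of the NMDA glutamate receptor, with 22 and 11 loops (0.50, 0.246 to 1.02), at ANKRD11, a chromatin regulator, with 15 and 7, and at SOCS1, with 16 and 7. These genes were picked as the extremes of 25 ratios.

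Of 242 genes with at least 5 mock loops, 35 had no PDS loop. Even at 9 mock loops, the most among them, the upper limit of the ratio was 0.427, above the ratio of the arms. These genes are not separate losses, since some share an anchor and the same loops, as CES2 and CIAO2B do. TMEM186 shares its only promoter anchor with PMM2, which had 2 PDS loops. They included SPG7, a mitochondrial protease, and TMEM186 with 9 mock loops each, the amino acid transporter genes SLC7A6 with 8 and SLC7A5 with 6, SF3B3, a splicing factor subunit, with 7, and CES2, a carboxylesterase of liver and gut, with 6. In the other direction, 34 genes had more PDS than mock loops. The largest counts were at BANP, a chromatin-binding protein, with 9 mock and 10 PDS loops, at MMP15, a membrane-bound matrix metalloproteinase, with 7 and 8, and at MMP2, a secreted one, with 5 and 7. FANCA, a Fanconi anaemia DNA repair gene, is not among the 34 and had fewer loops after PDS, 13 and 8. The intervals of these 4 ratios, such as 0.464 to 2.66 at BANP and 0.262 to 1.45 at FANCA, all include 1. Neither more nor fewer loops after PDS was resolved at any of them. At BANP, MMP15 and MMP2, which were picked as extremes, the intervals lie above the ratio of the arms.

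Loops with both anchors inside 1 gene made up 35.7% of mock loops (34.4 to 37.2%) and 37.3% of PDS loops (34.8 to 39.8%). SNX29 held the most, 70 mock and 25 PDS loops within 598 kb. WWOX, an oxidoreductase gene that spans 1113 kb, held 55 and 18, though no loop was listed at a promoter of the gene. GSE1 held 52 and 11, ZFHX3, a homeobox transcription factor gene, 50 and 12, and RBFOX1, at 2474 kb the longest of these, 45 and 18. The ratio of GSE1 was 0.212 (0.112 to 0.401) and that of RBFOX1 0.40 (0.233 to 0.686), with overlapping intervals.

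Gene groups were counted from lists of genes with known roles. Over all 841 genes the median was 2 mock loops per gene. The 23 liver and plasma genes had a median of 3. Of these, 21 had a mock loop and 15 a PDS loop, where 80.9% and 49.1% of all genes did. Together they had 117 distinct mock loops and 26 PDS loops, a ratio of 0.222 (0.146 to 0.339). HP, which encodes haptoglobin, and its neighbour HPR shared 1 promoter anchor and so the same 7 mock and 4 PDS loops. HSD17B2, a steroid dehydrogenase gene, had 9 and 4. CYB5B, a cytochrome b5 of the outer mitochondrial membrane, had 13 and 1, and CETP, the cholesteryl ester transfer protein gene, had 5 and 1. ABAT and PMM2 supplied the largest counts of this list.

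The 19 chromatin and transcription regulators had a median of 5 mock loops, with 103 distinct mock loops and 27 PDS loops (0.262, 0.172 to 0.399). CHD9, a chromatin remodeller, had 16 and 6, and POLR3E, a subunit of RNA polymerase III, had 9 and 1. CTCF, the insulator protein gene, had 3 and 1. The 14 tumour suppressor and cancer genes had 73 and 25 loops (0.343, 0.218 to 0.537), led by SOCS1 and FANCA, while TSC2 had 4 and 0 and CYLD 5 and 0. The 13 markers of other cell types had 59 and 23 loops (0.390, 0.242 to 0.628), of which MYH11, the smooth muscle myosin gene, had 16 and 5. At its canonical start MYH11 had 1 mock and 0 PDS loops.

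The smaller clusters had few loops. The 11 metallothionein genes, which encode metal-binding proteins, had 9 mock and 4 PDS loops in all, with 0 at MT2A. The 6 genes of the alpha-globin list had 8 and 2, of which NPRL3 had 7 and 2. The 8 cadherin genes had 18 and 5, the 9 genes of mitochondrial respiration 24 and 8, and the 4 ribosomal protein genes 8 and 1. The 9 developmental transcription factor genes had 11 and 4, led by TBX6 with 6 and 1, and the 4 sulfotransferase genes had 6 and 4, all at SULT1A1 and SULT1A2. The intervals of these ratios all overlap, so no order can be read among them. Among 28 genes of segmental duplications, 5 had a mock loop, and SMG1 and PDXDC1 held most of these, with 21 and 11. Reads in near-identical copies may have been dropped or split before the lists were made, so low counts there are uncertain.

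The mock loops with most PETs are given with their PETs after PDS. They were picked for high counts in the mock list, so lower counts in the other list follow in part from the choice, and the values are a description. In mock-treated cells the highest count was 20 PETs, reached by 2 loops. One joined chr16:14310058-14325394 with chr16:14330502-14348614, outside any protein-coding gene, and had 3 PETs after PDS. The other joined chr16:20423575-20433776, at a promoter of ACSM5, a mitochondrial acyl-CoA synthetase gene, with chr16:20590260-20603314 and had 6 after PDS. A loop from the TMEM114 anchor to chr16:8651414-8659378, 93.3 kb away, went from 16 to 5 PETs. Loops with 14 mock PETs stood at MRTFB and at KIFC3, a kinesin gene, with 3 after PDS each, at DPEP1, a dipeptidase gene, with 5, and in SNX29, with 9. A loop with 13 mock PETs at ZFPM1, which encodes a GATA cofactor, was not listed after PDS.

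A few loops had more PETs after PDS. The strongest PDS loop joined chr16:72980705-72993086 to chr16:73027314-73060358, a promoter anchor of ZFHX3, and went from 5 to 11 PETs. A loop within CLEC16A, an autophagy-related gene beside SOCS1, went from 3 to 8, and a loop between the anchor of RMI2, SOCS1 and TNP2 and one in RMI2 went from 5 to 7. At a promoter anchor of ALG1 and NAGPA the counts were 8 and 9. Single loops at such counts have wide counting error.

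Part of the strong long-distance signal joined near-identical sequences. The share of an anchor's 31-base sequences also found in its partner was used to measure this. Anchors at chr16:21770590-21776060 and chr16:22586729-22594250 lie 817 kb apart, share 71.0% of these sequences and were joined by 12 mock and 10 PDS PETs. A parallel pair at the same spacing, chr16:21755597-21762054 and chr16:22571738-22578196, shares 80.5% and had 7 PETs in both conditions. Another, chr16:21762651-21768079 and chr16:22578793-22585604, shares 76.8%, had 13 mock PETs and was not listed after PDS. The ACSM5 loop above joins anchors that share 39.0%. Of loops of 200 kb or more, 12 in mock-treated and 7 in PDS-treated cells joined anchors sharing over 10% of their sequence, and these included 8 of the 21 such mock loops with at least 5 PETs and 6 of the 7 such PDS loops. Whether reads were placed in the wrong copy was not tested. Without loops that have an anchor of over 50% multi-copy sequence, the PDS/mock ratio of the arms was 0.314 (0.295 to 0.333).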

How the data were processed

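POLR2A HiChIP-seq libraries of HepG2 cells (2 mock-treated, 2 treated with 20 µM PDS for 24 h) were processed by the authors with HiC-Pro version 3.1.0 on GRCh38. The authors deposited 1 list of loops per condition with whole-number counts of PETs, not scaled. The tool that called loops and the way replicates were combined are not given in the sources used here. The chromosome 16 loops, gene lists and tests were chosen with earlier results of these data known.

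Loops were placed in 5 Mb windows by their midpoint. Shared loops had identical anchors. PDS/mock ratios have 95% intervals from Wilson intervals of the PDS share (scipy 1.17.1). Gene starts came from GENCODE 44. Genes were named by most loops or PETs at promoter anchors (12, 10 and 8 genes by mock loops, mock PETs and PDS loops), the strongest loops, extreme ratios among genes with at least 15 mock loops, leading genes of windows, and listed genes. Multi-copy sequence was measured over 31-base sequences of the reference without alternate contigs. Statistics were tested on simulated loops. Listed loops on the arms held 17631 mock and 4907 PDS PETs, which are not library depths. Sequences were read with pysam 0.24.0 and samtools 1.23.1 and compared with numba 0.67.0 under Python 3.11.15. Tables were handled with pandas 2.3.3 and figures drawn with matplotlib 3.10.9. 1 listed gene is not reported here by name.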

Additional observations from a re-analysis of the deposited data

How the results depend on the processing

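No paired analysis was possible because each condition came as 1 combined list, so leaving out replicates and the replicate block were not run. The PDS/mock ratio of loop numbers fell with the PET minimum. At 4 PETs it was 0.215 for both arms, 0.228 for the short arm and 0.203 for the long arm, and at 5 PETs 0.161, 0.172 and 0.149. The ratio of PETs at the minimum of 5 was 0.144. The share of mock loops listed in both was 32.97% with anchors extended by 5 kb and 8.43% with at least 5 PETs in both lists. Promoter shares of mock and PDS loops were 53.4% and 50.5% with 2500 bp on either side, 60.4% and 58.3% with lncRNA starts added, and 54.2% and 52.5% at 5 PETs. The share of mock loops with a G4 motif was 91.8% with spacers of 1 to 12 and 40.0% when both anchors needed one. The other 25 of 42 alternatives on these results stayed within the interval of the value reported, among them an excluded stretch of 30 to 50 Mb and, added after seeing the data, the tip left out. The lowest window, 0 to 5 Mb, was still the lowest by first anchor and by PETs. With 10 Mb windows the lowest ran from 30 Mb to the excluded stretch (0.244) and the highest from 20 to 30 Mb (0.357). With multi-copy anchors left out, the lowest was 65 to 70 Mb (0.203) and the highest 5 to 10 Mb (0.486). Only windows that still had at least 50 mock loops were ranked, and whether the tip was among them is not shown. Single loops at 3 PETs limit all gene counts.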
